A study of Homo sapiens with 23 samples.

Results

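Messenger RNA of 9 genes that control the pausing and release of RNA polymerase II was measured in SUDHL5 cells, a human line of diffuse large B-cell lymphoma. The genes encode the subunits of the negative elongation factor NELF (NELFA, NELFB, NELFCD and NELFE), both subunits of DSIF (SUPT4H1 and SUPT5H), the elongation factor SPT6 (SUPT6H) and a pair of BET proteins (BRD2 and BRD3). They were chosen by name for their roles, with earlier results of these data known, and they are 9 of the 58592 genes to which the deposited transcripts were summed. The cells received CDK-TCIP1, a bivalent compound made to bring transcriptional kinases such as CDK9 to the repressor BCL6, and polyadenylated RNA was sequenced. Cells were treated for 2 h with 10 nM (2 libraries), 30 nM (4 libraries) or 100 nM of it (3 libraries), and a further 3 libraries are of 30 nM after 4 h. The compounds Neg1 and Neg2 were each given at 30 nM for 2 h (2 libraries each) and for 4 h (2 libraries each), and the labels used here do not say how they differ from CDK-TCIP1. DMSO, the solvent, was given for 4 h (3 libraries), so the 2 h groups have no solvent group of their own time and were set against the mean of the Neg1 and Neg2 groups of 2 h. All groups are of 1 unmodified cell line. The labels do not say whether the libraries of a group came from separate cultures, so each p-value measures the spread among these libraries alone, which may be technical.

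RNA polymerase II stops a short way into most human genes. DSIF and NELF hold it there, and the kinase CDK9, within the complex P-TEFb, phosphorylates the DSIF subunit SPT5, NELF and the polymerase. NELF then leaves, while DSIF stays on the moving polymerase and is joined by SPT6, a histone chaperone. BET proteins bind acetylated histones through their bromodomains and help to bring elongation factors to active genes. In lymphoma these steps are the target of inhibitors of CDK9 and of BET bromodomains.

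Library totals ran from 17396484 to 26373153 estimated counts, and 17743 genes passed the filter on low counts, among them all 9 genes. Markers of B cells were present (8 of 8, summed level 2305 to 3009 CPM, counts relative to the scaled library total). Those of T and NK cells summed to 1.53 to 3.66 CPM, those of myeloid cells to 0.556 to 1.56 CPM and those of erythroid cells to at most 1.91 CPM, with HBB at 0 in all libraries. The list for epithelial cells and fibroblasts summed to 35 to 58.2 CPM, nearly all of it from DCN, the only member at or above a median of 1 CPM. Replicate 1 of 100 nM stood apart from the rest of its group, and the 2 Neg2 libraries of 2 h stood apart from each other. Paired counts were compared by chi-square, divided by its degrees of freedom. It was 10.2 and 14.2 between replicate 1 of 100 nM and the other libraries of that dose. Between the Neg2 libraries it was 13.5, while all other replicate pairs lay between 4.31 and 7.88. A value from 1 pair cannot say which of the Neg2 libraries is unusual. Replicate 1 of 100 nM and replicate 1 of Neg2 at 2 h are below called the 2 libraries that stood apart.

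Per length, BRD2 was the most abundant of the 9 genes. Its median over the 23 libraries was 178 TPM, a unit corrected for transcript length, and was above that of 96.3% of the genes tested. SUPT4H1 followed at 129 TPM and SUPT5H at 94.9 TPM, and the ranges over libraries of these 3 genes overlapped. Every SUPT5H library was above every library of NELFB (51.6 to 70.9 TPM), the next in order. NELFB (59 TPM), SUPT6H (46.3 TPM), NELFE (42.7 TPM) and NELFA (37.5 TPM) formed the middle, and each overlapped its neighbour in this order. BRD3 was lowest at 10.1 TPM, under BRD2 in every library (7.02 to 18.1 against 87.7 to 225 TPM). NELFCD, at 16 TPM, is incomplete, as described with its values.

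By scaled counts, most of these genes changed with CDK-TCIP1 at 30 and 100 nM for 2 h, in both directions. At most 1.57-fold lay between the highest and the lowest group mean of a gene in CPM. The counts are of an adjusted p under 0.05 in the edgeR quasi-likelihood test, and each is set beside the share of all tested genes that passed the same test. At 10 nM, 3 of the 9 genes changed, where 13.5% of all genes changed, with 1 higher (6.79% of all genes) and 2 lower (6.76%). At 30 nM, 7 changed (background 37.1%), with 5 higher (19.1% of all genes) and 2 lower (18%). At 100 nM, 8 changed (background 44.9%), with 5 higher (22%) and 3 lower (22.9%). At 30 nM and 4 h against DMSO, 3 changed (background 36.8%), a share near that of all genes, with 2 higher (17.5%) and 1 lower (19.3%). The libraries compared did not overlap for 5, 5 and 7 of the 9 genes at the rising doses (34%, 33.3% and 43.9% of all genes) and for 4 at 4 h (48.6%). The median log2 fold change of the 9 genes was 0.04, 0.17 and 0.24 at the rising doses and 0.13 at 4 h, beside 0.01, 0.03, 0.01 and 0.03 over all genes.

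These rises are of counts after scaling between libraries, and the deposited TPM, which are not scaled between libraries, did not show them at 100 nM. NELFB averaged 54.4 TPM there, against 61.8 with Neg1 and 58.1 TPM with Neg2 at 2 h, and SUPT4H1 averaged 116 against 134 and 131 TPM. NELFE was at 40.2 against 44.2 and 39 TPM, SUPT6H at 42.9 against 43.6 and 42.6 TPM, and SUPT5H at 93.6 against 93.5 and 81.6 TPM. The falls were seen on that scale too, with NELFA at 22.3 against 39.2 and 40 TPM and BRD2 at 105 against 210 and 221 TPM. When counts were scaled by transcript length and then between libraries, 4 of the 5 rises passed the test, all but that of SUPT4H1.

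**Figure D1:**
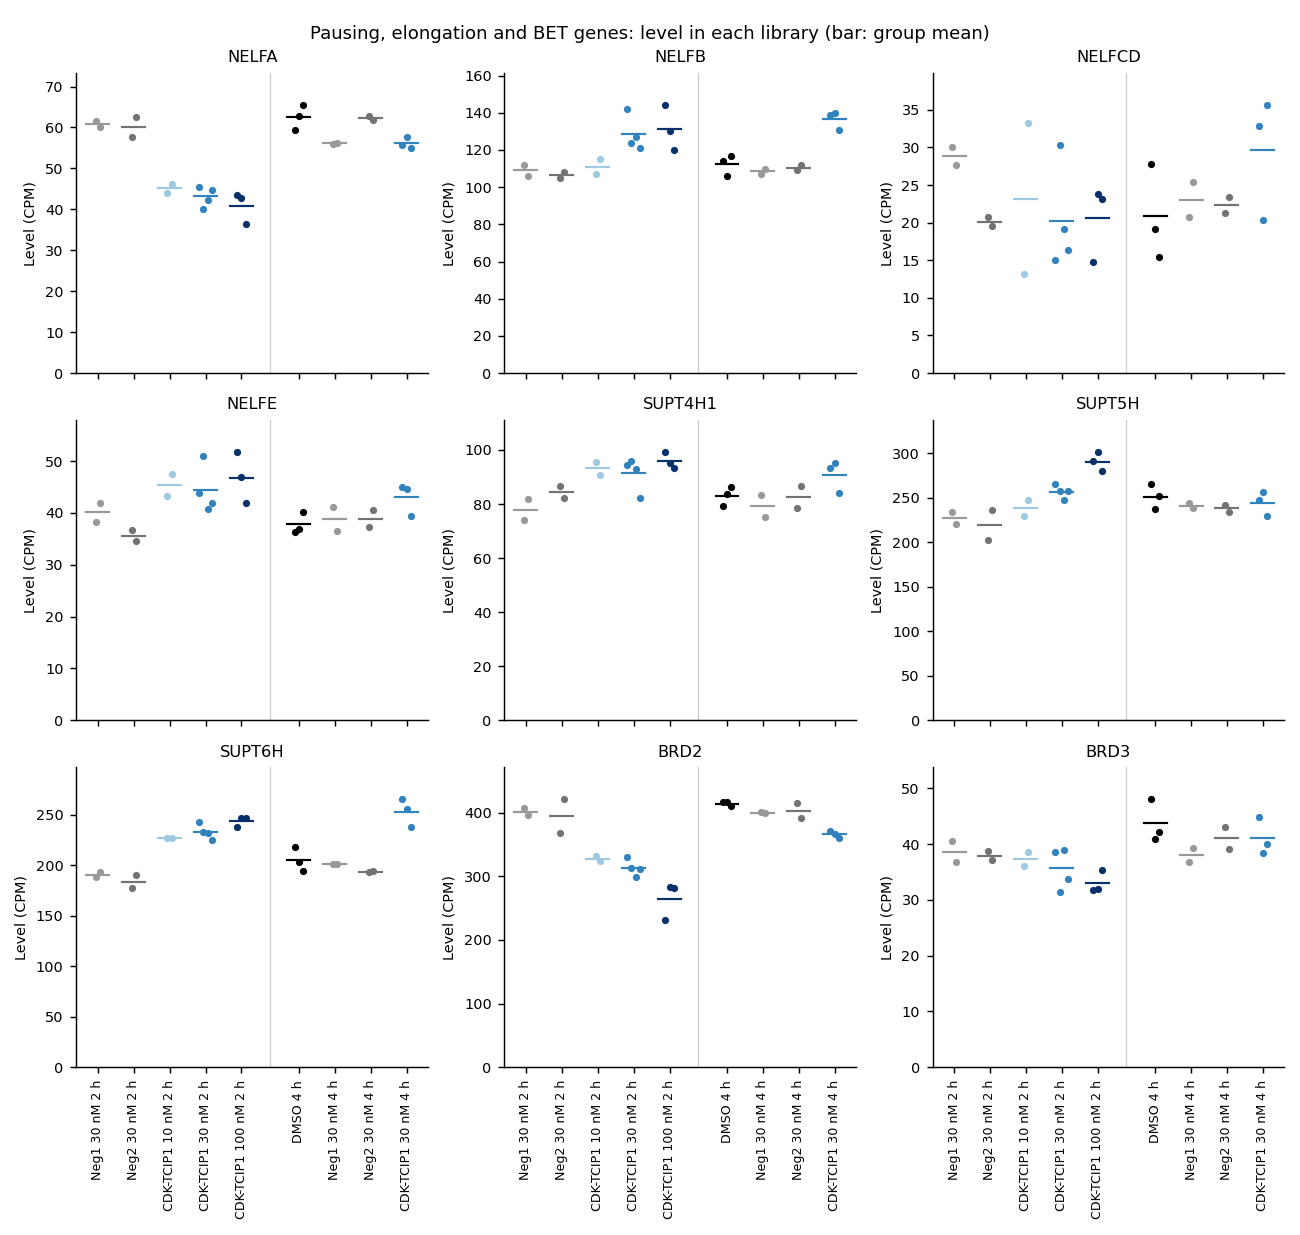
Level of each of the 9 genes (y axis, CPM from 0) in each of the 23 libraries, grouped along the x axis by compound, dose and time, with a vertical line between 2 h and 4 h. Points are libraries and bars are group means. NELFA and BRD2 lie lower in the CDK-TCIP1 libraries of 2 h than in Neg1 and Neg2, SUPT6H lies higher, and NELFCD scatters within groups.

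**Figure D2:**
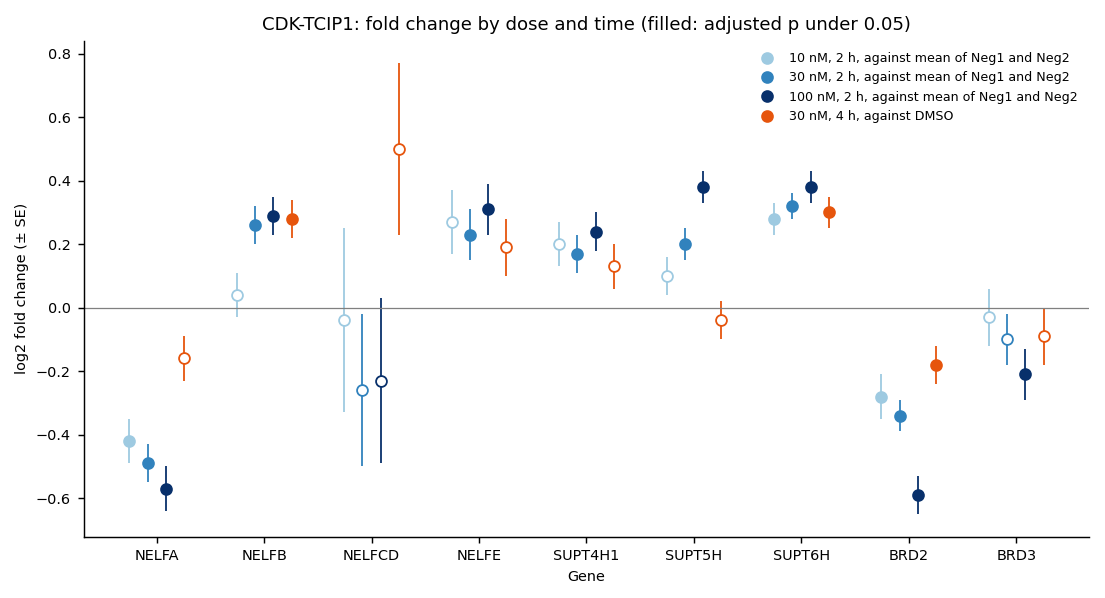
Log2 fold change (y axis, bars are standard errors) of each gene (x axis) at 10, 30 and 100 nM for 2 h against the mean of Neg1 and Neg2 (3 blues) and at 30 nM for 4 h against DMSO (orange). Filled points passed the test at an adjusted p under 0.05. NELFA and BRD2 are below 0 at all 3 doses and SUPT6H is above 0 in all 4 comparisons.

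NELFA, the subunit that binds the polymerase and was first known as WHSC2, fell within 2 h. Its gene (ENSG00000185049) lies on the minus strand of chromosome 4 at 1982714 to 2041903 (GRCh38). At 2 h it measured 61.5 and 60 CPM with Neg1 and 57.6 and 62.6 CPM with Neg2. With CDK-TCIP1 it measured 44.1 and 46.1 CPM at 10 nM, 45.5, 40.1, 42.3 and 44.7 CPM at 30 nM, and 43.4, 42.7 and 36.3 CPM at 100 nM. Every CDK-TCIP1 library of 2 h was below every Neg1 and Neg2 library, and the doses overlapped one another. Its log2 fold change was -0.42 ± 0.07 (SE) at 10 nM (adjusted p = 0.000363), -0.49 ± 0.06 at 30 nM (adjusted p = 6.33e-07) and -0.57 ± 0.07 at 100 nM (adjusted p = 1.25e-07). With counts scaled by transcript length the value at 10 nM was -0.20 and no longer passed (adjusted p = 0.246).

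By 4 h NELFA stood at 55.6, 57.7 and 55.1 CPM with 30 nM, against 59.4, 62.8 and 65.4 CPM in DMSO, 55.9 and 56.3 CPM with Neg1, and 62.8 and 61.9 CPM with Neg2. These libraries were below those of DMSO and Neg2 and overlapped those of Neg1. The fold change against DMSO, -0.16 ± 0.07, missed the threshold (adjusted p = 0.0783), although it passed when only protein-coding transcripts were summed (-0.32, adjusted p = 0.00232), without the 2 libraries that stood apart (-0.17, adjusted p = 0.0358) and without DMSO replicate 1 (-0.21, adjusted p = 0.0396). Between 2 h and 4 h of 30 nM, NELFA rose by 0.38 ± 0.06 (adjusted p = 0.000113). Its difference from the mean of Neg1 and Neg2 was higher at 4 h than at 2 h by 0.41 ± 0.09 (adjusted p = 0.00289), the 1 call among the 9 genes in a test that 12% of all genes passed (5.61% in this direction). Both differences lost their call with length scaling (0.24, adjusted p = 0.0656, and 0.20, adjusted p = 0.365).

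Of 28 transcripts that held at least 10% of the counts of their gene in some group, 1, 5 and 9 changed in level at the rising doses (1.28%, 7.25% and 11.5% of all transcripts) and 3 at 4 h (7.12%). The groups with CDK-TCIP1 counted in this choice, so a transcript could enter through its rise there. The transcripts of NELFA had different values. Kallisto splits reads among transcripts that share sequence, and the files hold no measure of the error of that split, so levels of single transcripts are less certain than gene sums. NELFA-202, a protein-coding transcript of 11 exons that starts at 2010110, held 62.1% to 65.2% of the NELFA counts in the Neg1 and Neg2 groups of 2 h. It measured 45.4 and 33.7 CPM with Neg1 and 35.8 and 39.1 CPM with Neg2, against 22.9 and 21.7 CPM at 10 nM, 25, 23.7, 20.1 and 19.5 CPM at 30 nM, and 14.9, 15.3 and 14 CPM at 100 nM. The groups did not overlap, and the 100 nM libraries were also below those of the lower doses. The log2 fold changes were -0.79 ± 0.15 (adjusted p = 0.0147), -0.80 ± 0.12 (adjusted p = 0.000412) and -1.39 ± 0.14 (adjusted p = 2.48e-06). The 10 nM call was lost without either 10 nM library (adjusted p = 0.165 and 0.201) or without Neg1 replicate 1 (adjusted p = 0.0605). NELFA-216, the other long coding transcript, passed this level test with all libraries only at 100 nM (-0.83 ± 0.24, adjusted p = 0.0281). That call was lost in 6 of the 7 fits without 1 library (adjusted p of 0.0677 to 0.0758 without a 100 nM library) and without the 2 libraries that stood apart (-0.87). At 30 nM for 2 h NELFA-216 missed the threshold with all libraries and passed without 30 nM replicate 3 (-0.85, adjusted p = 0.0279). Its value there was -0.86 without Neg1 replicate 1.

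NELFA-205 went the other way. The annotation calls it protein coding with an incomplete 5′ end, and it starts 17486 bases downstream of the start of NELFA-202. Its level was 0.442 and 0.361 CPM with Neg1 and 0 and 0.31 CPM with Neg2 at 2 h. With CDK-TCIP1 it was 3.7 and 1.77 CPM at 10 nM, 1.47, 1.58, 1.5 and 6.3 CPM at 30 nM, and 8.38, 11.2 and 4.04 CPM at 100 nM, above every library of Neg1 and Neg2. The level test gave 3.39 ± 0.74 at 30 nM (adjusted p = 0.00856) and 4.93 ± 0.80 at 100 nM (adjusted p = 0.000472), folds that rest on control levels near 0. The call at 30 nM was lost without Neg1 replicate 2 (adjusted p = 0.0525). A usage test, which asks whether a transcript moved differently from the other transcripts of its gene, passed for NELFA-205 at 10 nM (adjusted p = 0.0217), 30 nM (adjusted p = 0.00289) and 100 nM (adjusted p = 1.00e-05). Of the 28 transcripts it was the 1 that passed at each dose, where 0.378%, 1.1% and 1.51% of all transcripts passed, and none passed at 4 h (0.889% of all, with 5666 of all transcripts at an unadjusted p under 0.05). NELFA-205 was far under 10% of the gene's counts in the Neg1 and Neg2 groups of 2 h. It is among the 28 only through groups where it was higher, so its place in this count follows in part from how the 28 were chosen. Without the 2 libraries that stood apart the usage call was lost at 10 nM (adjusted p = 0.26) and 30 nM (adjusted p = 0.108), and at 10 nM also without 10 nM replicate 1 (adjusted p = 0.428), Neg1 replicate 1 (adjusted p = 0.142), Neg1 replicate 2 (adjusted p = 0.156) or Neg2 replicate 1 (adjusted p = 0.246). At 30 nM it was lost without 30 nM replicate 4 (adjusted p = 0.0628), Neg1 replicate 2 (adjusted p = 0.057) or Neg2 replicate 1 (adjusted p = 0.0981). It passed at 100 nM in every fit run.

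NELFA-212, a transcript with a retained intron that starts 17866 bases downstream of NELFA-202, was singled out after its values were seen. It rose by 3.13 ± 0.78 at 30 nM (adjusted p = 0.0188) and by 3.87 ± 0.82 at 100 nM (adjusted p = 0.00391). Without the 2 libraries that stood apart both calls were lost (adjusted p = 0.0962 and 0.051), and that at 30 nM also without replicate 4 of 30 nM (adjusted p = 0.0581), Neg1 replicate 1 (adjusted p = 0.0896), Neg1 replicate 2 (adjusted p = 0.0761) or Neg2 replicate 1 (adjusted p = 0.0842). All NELFA transcripts that are not protein coding together held 4.38% ± 1.15 (SD, n = 2) of the gene's counts with Neg1 and 5.42% ± 3.14 (n = 2) with Neg2 at 2 h. That share was 10% ± 0.706 (n = 2) at 10 nM, 14.5% ± 2.88 (n = 4) at 30 nM and 18.8% ± 3.75 (n = 3) at 100 nM. At 4 h it was 17.3% ± 7.35 (n = 3) with 30 nM, 4.7% ± 1.02 (n = 3) in DMSO, 6.61% ± 5.1 (n = 2) with Neg1 and 7.47% ± 0.337 (n = 2) with Neg2. The lowest of the 30 nM libraries, at 9.17%, lay under the higher Neg1 library, at 10.2%.

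**Figure D3:**
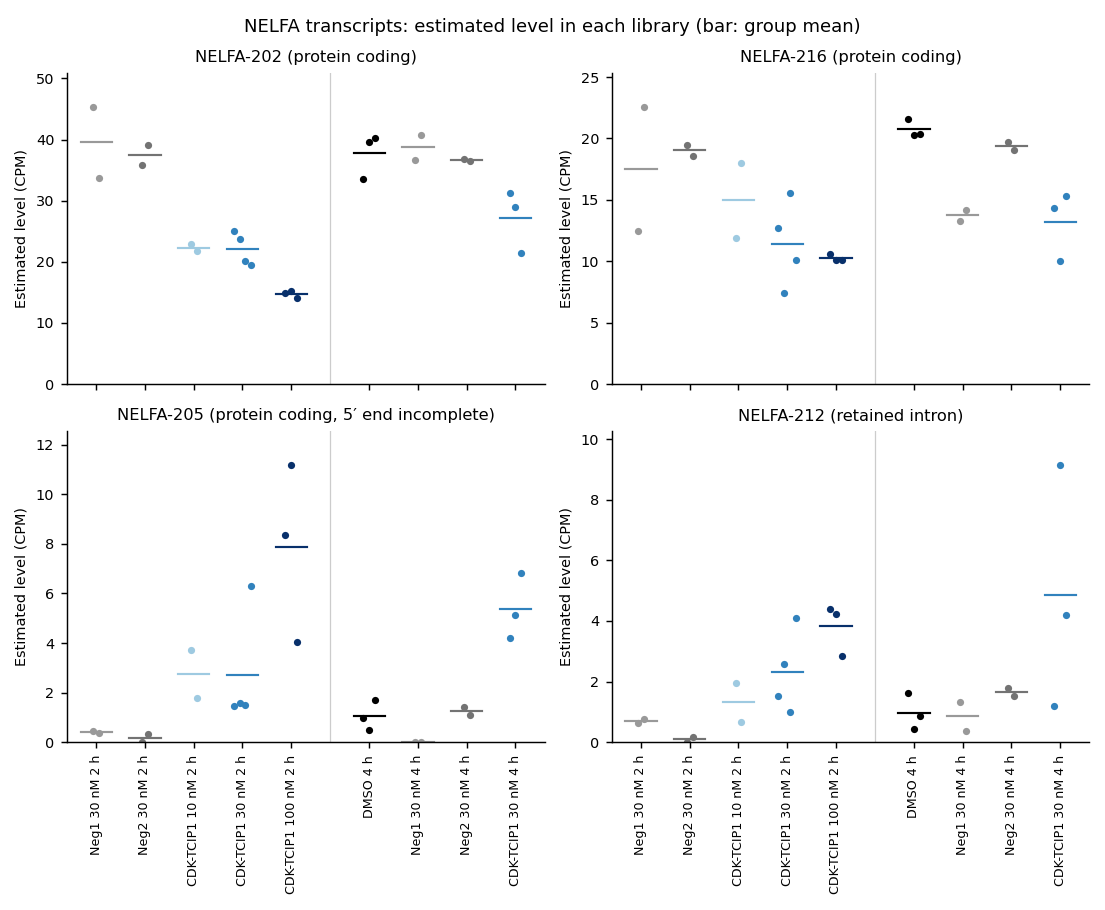
Estimated level (y axis, CPM from 0) of 4 NELFA transcripts in each library, grouped along the x axis as for the genes. Points are libraries and bars are group means. NELFA-202 is lowest at 100 nM (14 to 15.3 CPM), while NELFA-205 is below 0.5 CPM in the Neg1 and Neg2 libraries of 2 h and between 1.47 and 11.2 CPM with CDK-TCIP1.

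NELFB, the subunit also known as COBRA1, rose at the higher doses and stayed up. The gene (ENSG00000188986, chromosome 9, 137255173 to 137273546, plus strand) has 2 annotated transcripts, both coding. At 2 h it measured 112 and 106 CPM with Neg1 and 105 and 108 CPM with Neg2. It measured 107 and 115 CPM at 10 nM, 142, 124, 127 and 121 CPM at 30 nM, and 144, 130 and 120 CPM at 100 nM. The 10 nM libraries overlapped those of Neg1 and Neg2, and those of 30 and 100 nM were all above them. This gave a log2 fold change of 0.04 ± 0.07 at 10 nM (adjusted p = 0.772), 0.26 ± 0.06 at 30 nM (adjusted p = 0.000752) and 0.29 ± 0.06 at 100 nM (adjusted p = 0.000348).

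At 4 h NELFB measured 139, 140 and 131 CPM with 30 nM, 114, 106 and 117 CPM in DMSO, 107 and 110 CPM with Neg1, and 109 and 112 CPM with Neg2. All CDK-TCIP1 libraries were above all others of that time. NELFB rose by 0.28 ± 0.06 against DMSO (adjusted p = 0.00113), 0.33 ± 0.07 against Neg1 (adjusted p = 0.00102) and 0.31 ± 0.07 against Neg2 (adjusted p = 0.00199). Against DMSO the value was 0.19 with length scaling (adjusted p = 0.0794). NELFB-201, the longer transcript, held 77% to 89.7% of the counts of the gene in the group means and rose by 0.45 ± 0.09 at 4 h (adjusted p = 0.00488).

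NELFE, the subunit with an RNA recognition motif (ENSG00000204356, chromosome 6, 31952087 to 31959110, minus strand), was higher at 2 h. It measured 38.2 and 42 CPM with Neg1 and 36.7 and 34.6 CPM with Neg2, against 43.2 and 47.5 CPM at 10 nM, 43.8, 51.1, 40.7 and 41.9 CPM at 30 nM, and 51.7, 46.9 and 41.9 CPM at 100 nM. Its second Neg1 library reached into the 30 and 100 nM groups. The log2 fold change was 0.27 ± 0.10 at 10 nM (adjusted p = 0.0647), 0.23 ± 0.08 at 30 nM (adjusted p = 0.0216) and 0.31 ± 0.08 at 100 nM (adjusted p = 0.00384). The call at 30 nM was lost without 30 nM replicate 2 (adjusted p = 0.122), Neg1 replicate 1 (adjusted p = 0.115) or Neg2 replicate 2 (adjusted p = 0.083), and the call at 100 nM without the 2 libraries that stood apart (0.24, adjusted p = 0.0699). At 4 h it measured 45, 44.7 and 39.5 CPM with 30 nM and 36.3, 37 and 40.1 CPM in DMSO, 2 libraries above DMSO and 1 within it. That difference, 0.19 ± 0.09, missed the threshold (adjusted p = 0.106) and passed with protein-coding transcripts alone (0.27, adjusted p = 0.0174).

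NELFCD encodes the variants NELF-C and NELF-D, which differ in their start codon. Its gene (ENSG00000101158, chromosome 20, 58981208 to 58995133, plus strand) cannot be read from these sums. Only 13 transcripts of it were matched, 1 of them coding (NELFCD-213, listed at 0 in 7 of 23 libraries), and their sum ran from 13.2 to 35.6 CPM. Within groups it scattered by a median coefficient of variation of 24.4%, more than for 99.7% of the genes with an average of at least 10 CPM. The deposited tables list between these rows 1 transcript of 2237 bases (ENST00000652272.2) that the annotation used here does not hold, so no gene was assigned to it. That transcript measured 70.1 to 135 CPM over the 23 libraries, several times the matched sum, and for the other 8 genes no such row was found. At 4 h it measured 72.7, 90.6 and 70.1 CPM with 30 nM and 94.6, 107 and 116 CPM in DMSO, so it was lower with CDK-TCIP1 without overlap, while the matched NELFCD sum measured 32.8, 20.4 and 35.6 CPM against 27.8, 19.2 and 15.5 CPM. With all libraries in 1 fit and the filter on low counts, no comparison called the matched sum (0.50 ± 0.27 against DMSO, adjusted p = 0.151). It passed against DMSO with no filter (0.47 ± 0.11, adjusted p = 0.000111) and with only the groups compared (0.51, adjusted p = 0.0452). With no filter it also passed against Neg1 and Neg2 at 4 h and, lower, at 30 nM for 2 h against Neg1 and against the mean of both. The fit with no filter called it between the times of 30 nM and for the change of the effect over time too. That fit also called it between Neg1 and Neg2 at 2 h (0.51 ± 0.13, adjusted p = 0.0282). Fits without 1 library called it lower at 30 nM for 2 h against Neg1 (-0.77, adjusted p = 0.0401) and higher at 4 h than at 2 h of 30 nM (adjusted p = 0.0218 and 0.0472).

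SUPT5H encodes SPT5, the large DSIF subunit and a substrate of CDK9 (ENSG00000196235, chromosome 19, 39436156 to 39476670, plus strand). Its mRNA rose at 2 h with the higher doses. It measured 234 and 221 CPM with Neg1 and 202 and 236 CPM with Neg2, against 230 and 247 CPM at 10 nM, 265, 258, 247 and 258 CPM at 30 nM, and 291, 301 and 280 CPM at 100 nM. The 10 nM libraries overlapped the controls, those of 30 nM were above them, and those of 100 nM were above those of 30 nM. This gave a log2 fold change of 0.10 ± 0.06 (adjusted p = 0.332), 0.20 ± 0.05 (adjusted p = 0.00211) and 0.38 ± 0.05 (adjusted p = 1.95e-06) at the 3 doses.

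At 4 h SUPT5H measured 248, 256 and 230 CPM with 30 nM and 265, 237 and 252 CPM in DMSO, and the groups overlapped. Its log2 fold change was -0.04 ± 0.06 (adjusted p = 0.651), and the range of 2 standard errors ran from a change of -10% to 5.46%. The difference of the effect between 4 h and 2 h, -0.17 ± 0.07, missed the threshold (adjusted p = 0.142).

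SUPT5H-216 and SUPT5H-218, retained-intron transcripts that held a small share of the SUPT5H counts, were higher at both times. They were singled out after their values were seen, from several such transcripts of the gene, and each held at most 2.59% of the gene's counts in any group mean. Neither passed the usage test at 30 nM for 2 h or at 4 h, where 0 of the 74 tested transcripts of the 9 genes passed at 4 h. SUPT5H-216 measured 4.7, 5.36 and 8.62 CPM with 30 nM at 4 h and 2.47, 1.51 and 1.16 CPM in DMSO, without overlap, and rose by 1.85 ± 0.38 (adjusted p = 0.00475). It also rose at 30 nM for 2 h (1.52 ± 0.33, adjusted p = 0.0072) and at 100 nM (2.04 ± 0.35, adjusted p = 0.00062). SUPT5H-218 rose by 1.86 ± 0.38 at 4 h (adjusted p = 0.00434), 1.34 ± 0.32 at 30 nM for 2 h (adjusted p = 0.0148) and 1.64 ± 0.34 at 100 nM (adjusted p = 0.00324). Its call at 30 nM for 2 h was lost without Neg1 replicate 1 (adjusted p = 0.082) or Neg2 replicate 2 (adjusted p = 0.061), and that at 100 nM without the 2 libraries that stood apart (adjusted p = 0.0645). The share of transcripts that are not protein coding in SUPT5H was 1.47% ± 0.408 (SD, n = 3) in DMSO, 2.83% ± 0.246 (n = 2) with Neg1, 1.88% ± 0.617 (n = 2) with Neg2 and 5.29% ± 1.19 (n = 3) with 30 nM at 4 h, and each of the 30 nM libraries was above all others of that time.

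SUPT4H1 encodes SPT4, the small DSIF subunit (ENSG00000213246, chromosome 17, 58345175 to 58353093, minus strand). It measured 74 and 81.8 CPM with Neg1 and 86.8 and 82.1 CPM with Neg2 at 2 h. With CDK-TCIP1 it measured 95.7 and 90.8 CPM at 10 nM, 94.4, 96, 93.1 and 82.1 CPM at 30 nM, and 99.1, 95.1 and 93.3 CPM at 100 nM. All but 30 nM replicate 4 were above the controls. The log2 fold change was 0.20 ± 0.07 at 10 nM (adjusted p = 0.0624), 0.17 ± 0.06 at 30 nM (adjusted p = 0.0223) and 0.24 ± 0.06 at 100 nM (adjusted p = 0.00278). With length scaling neither call held (0.05, adjusted p = 0.697, at 30 nM and 0.20, adjusted p = 0.0974, at 100 nM), and the call at 30 nM was lost in 5 of the 8 fits without 1 library. At 4 h it measured 93.2, 95.2 and 84.2 CPM with 30 nM and 79.3, 83.7 and 86.3 CPM in DMSO, an overlap of 1 library, and 0.13 ± 0.07 missed the threshold (adjusted p = 0.138). SUPT4H1 shares 1325 exon bases with a second annotated gene of the same strand (ENSG00000285897), so reads between them are uncertain.

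SUPT6H, which encodes SPT6, rose in every comparison of CDK-TCIP1 with a control (ENSG00000109111, chromosome 17, 28662091 to 28702684, plus strand). At 2 h it measured 188 and 193 CPM with Neg1 and 177 and 190 CPM with Neg2. With CDK-TCIP1 it measured 227 and 227 CPM at 10 nM, 243, 233, 232 and 225 CPM at 30 nM, and 238, 247 and 247 CPM at 100 nM. All were above the controls, and neighbouring doses overlapped. Its log2 fold change was 0.28 ± 0.05 (adjusted p = 0.000694), 0.32 ± 0.04 (adjusted p = 2.39e-06) and 0.38 ± 0.05 (adjusted p = 2.38e-07).

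At 4 h SUPT6H measured 265, 256 and 238 CPM with 30 nM, 218, 203 and 194 CPM in DMSO, 201 and 201 CPM with Neg1, and 193 and 194 CPM with Neg2, again without overlap. It rose by 0.30 ± 0.05 against DMSO (adjusted p = 2.71e-05), 0.33 ± 0.06 against Neg1 (adjusted p = 4.93e-05) and 0.39 ± 0.06 against Neg2 (adjusted p = 6.32e-06). The calls against controls at both times held in every alternative run. Its counts came from SUPT6H-201 and SUPT6H-202, of which the latter rose by 0.61 ± 0.10 at 30 nM for 2 h (adjusted p = 0.000812), while SUPT6H-201 was at 0.10 ± 0.07 (adjusted p = 0.476). At 100 nM both rose, SUPT6H-202 by 0.57 ± 0.11 (adjusted p = 0.00146) and SUPT6H-201 by 0.28 ± 0.07 (adjusted p = 0.0183). The call of SUPT6H-201 was lost without the 2 libraries that stood apart (0.13, adjusted p = 0.449) and in 4 of the fits without 1 library (adjusted p of 0.0744 to 0.175). At 30 nM the usage test did not separate them (adjusted p = 0.958 for SUPT6H-202).

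BRD2 fell at 2 h at every dose. The BET genes lie on chromosome 6 at 32968660 to 32981505, plus strand (BRD2, ENSG00000204256), and on chromosome 9 at 134030305 to 134068535, minus strand (BRD3, ENSG00000169925). Stretches upstream of their starts are shown because BRD2 has 4 start sites in the RefSeq table and BRD3 has 1, and transcripts of BRD2 are described one by one with their values. The first 2 lines are the stretches before the starts of BRD2-201 and of BRD2-204 with BRD2-205, chr6:32968344-32968593 and chr6:32972928-32973083, the latter between annotated exons of other BRD2 transcripts. The third, on the minus strand, is that before BRD3-201, chr9:134068027-134068276, downstream of the first exon of BRD3-202. All are from RefSeq on GRCh38.p14, 5′ to 3′ on the strand of the gene, and capitals mark matches to the GC box GGGCGG on either strand.
BRD2 first start: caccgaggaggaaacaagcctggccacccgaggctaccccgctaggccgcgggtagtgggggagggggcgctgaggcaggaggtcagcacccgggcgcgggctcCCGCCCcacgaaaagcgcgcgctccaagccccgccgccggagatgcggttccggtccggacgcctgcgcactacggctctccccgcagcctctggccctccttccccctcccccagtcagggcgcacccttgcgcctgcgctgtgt
BRD2 start of 204 and 205: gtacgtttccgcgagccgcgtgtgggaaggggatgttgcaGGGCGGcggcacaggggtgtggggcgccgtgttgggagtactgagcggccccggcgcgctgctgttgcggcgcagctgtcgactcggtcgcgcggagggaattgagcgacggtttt
BRD3: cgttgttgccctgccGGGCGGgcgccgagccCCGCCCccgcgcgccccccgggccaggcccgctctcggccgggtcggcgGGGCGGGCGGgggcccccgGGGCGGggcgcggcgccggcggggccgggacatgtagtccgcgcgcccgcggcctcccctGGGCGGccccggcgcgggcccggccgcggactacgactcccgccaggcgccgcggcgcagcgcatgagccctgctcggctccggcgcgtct
The BRD2 stretches hold 1 match each and the BRD3 window holds 6, some of them overlapping. Over all 35116 windows of 250 bases in the table, 42.6% hold at least 1 match. None of the 3 holds CCGGAAGT, AAGATGGCG, TTCCNNGAA, TATAAA or CCAAT on either strand. Of the other BRD2 windows of 250 bases in the table, that before the second start holds 1 GGGCGG and that before the third holds 1 AAGATGGCG. These are matches of letters and not measured binding sites.

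At 2 h BRD2 measured 407 and 397 CPM with Neg1 and 368 and 421 CPM with Neg2. It measured 332 and 324 CPM at 10 nM, 331, 313, 299 and 312 CPM at 30 nM, and 231, 283 and 281 CPM at 100 nM. No CDK-TCIP1 library reached the controls, and the 100 nM libraries were below those of the lower doses. This gave a log2 fold change of -0.28 ± 0.07 at 10 nM (adjusted p = 0.0046), -0.34 ± 0.05 at 30 nM (adjusted p = 1.21e-05) and -0.59 ± 0.06 at 100 nM (adjusted p = 7.52e-09). At 10 nM the call was lost with protein-coding transcripts alone (-0.09, adjusted p = 0.448) and without either 10 nM library (adjusted p = 0.0505 and 0.0581).

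At 4 h BRD2 measured 371, 367 and 360 CPM with 30 nM, 417, 417 and 410 CPM in DMSO, 401 and 400 CPM with Neg1, and 415 and 392 CPM with Neg2. The CDK-TCIP1 libraries were below all others. BRD2 fell by 0.18 ± 0.06 against DMSO (log2 fold change -0.18, adjusted p = 0.0201), whereas -0.13 ± 0.07 against Neg1 (adjusted p = 0.155) and -0.14 ± 0.07 against Neg2 (adjusted p = 0.114) missed the threshold. These passed without the 2 libraries that stood apart (adjusted p = 0.015 and 0.00922). Without 30 nM replicate 3 the fall against DMSO was -0.17 (adjusted p = 0.0635). Summed over protein-coding transcripts alone it turned to 0.07 (adjusted p = 0.479).

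The transcripts not annotated as protein coding took a smaller share of BRD2 with CDK-TCIP1 at both times. At 2 h, transcripts that are not protein coding held 37.4% ± 0.234 (SD, n = 2) of the BRD2 counts with Neg1 and 39.2% ± 2.5 (n = 2) with Neg2. Their share was 29.5% ± 1.51 (n = 2) at 10 nM, 32.9% ± 2.11 (n = 4) at 30 nM and 28.8% ± 5.34 (n = 3) at 100 nM. The libraries of each dose lay below those of Neg1 and Neg2. Transcripts that are not protein coding held 36.3% ± 1.97 (SD, n = 3) of the BRD2 counts in DMSO, 37.3% ± 3.97 (n = 2) with Neg1, 35% ± 0.196 (n = 2) with Neg2 and 26.5% ± 2.15 (n = 3) with 30 nM at 4 h. The largest of them, BRD2-212, is annotated as subject to nonsense-mediated decay. It measured 63.3, 61.8 and 59 CPM with 30 nM and 96.1, 100 and 90.3 CPM in DMSO, without overlap, and fell by 0.64 ± 0.18 (log2 fold change -0.64, adjusted p = 0.0349), a call that no fit without 1 library kept (adjusted p of 0.0636 to 0.114). At 100 nM for 2 h it was at -0.92 ± 0.17 (adjusted p = 0.00118).

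BRD2-208, a retained-intron transcript singled out after its values were seen, stepped down with dose. It measured 11 and 12.8 CPM with Neg1 and 17.3 and 16.5 CPM with Neg2 at 2 h, 8 and 7.92 CPM at 10 nM, 4.04, 4.64, 5.6 and 4.51 CPM at 30 nM, and 2.63, 2.83 and 2.98 CPM at 100 nM. None of these groups overlapped its neighbour in dose. The log2 fold change was -0.83 ± 0.18 (adjusted p = 0.0275), -1.60 ± 0.15 (adjusted p = 2.20e-06) and -2.33 ± 0.17 (adjusted p = 7.15e-08), and -1.20 ± 0.17 at 4 h against DMSO (adjusted p = 0.000127). The call at 10 nM was lost in 5 of the 6 fits without 1 library (adjusted p of 0.0526 to 0.289 in those) and without the 2 libraries that stood apart (adjusted p = 0.0797). Its usage test did not pass (adjusted p = 0.096 at 100 nM). The coding BRD2-204 and BRD2-205 have the same coordinates and equal estimates, so they cannot be told apart, and each was at -0.25 ± 0.13 at 100 nM (adjusted p = 0.253). Antisense transcripts share 577 exon bases with BRD2, and whether the counting used strand is not given in the sources used here.

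**Figure D4:**
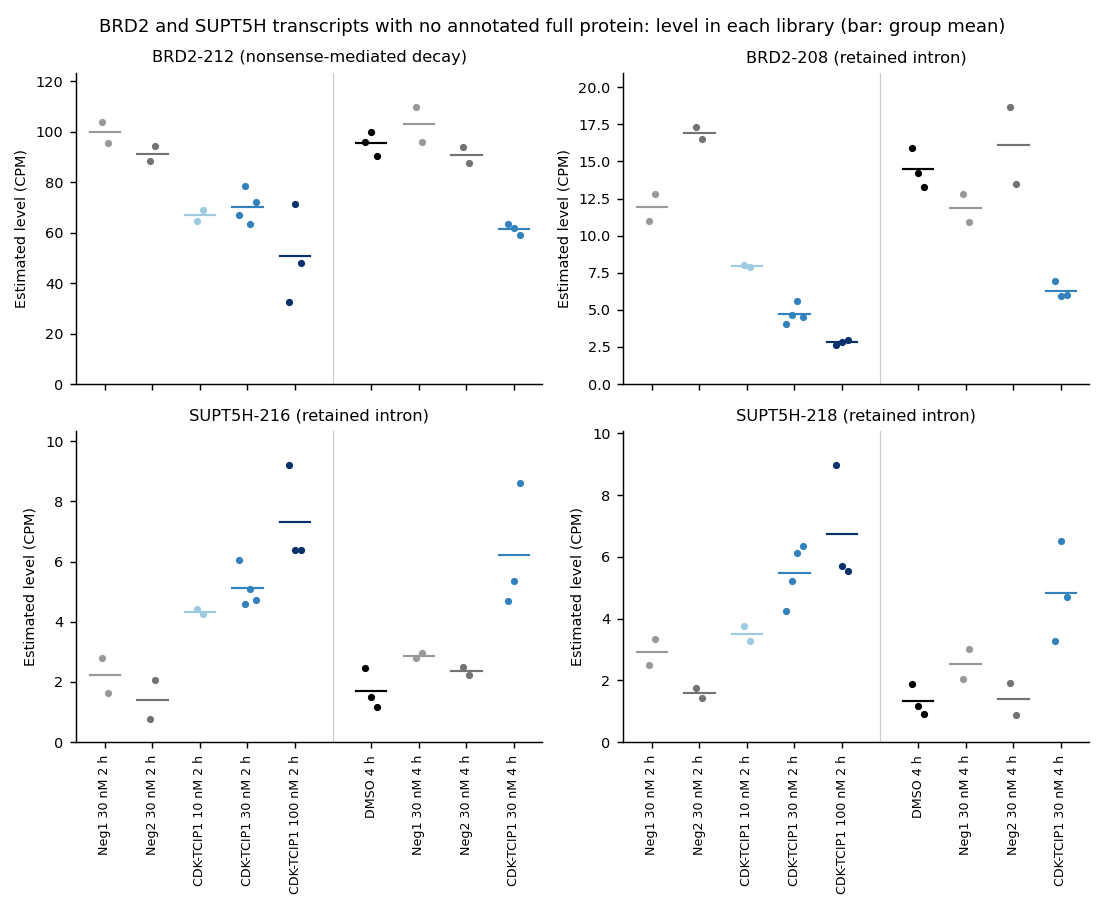
Estimated level (y axis, CPM from 0) of BRD2-212, BRD2-208, SUPT5H-216 and SUPT5H-218 in each library, grouped along the x axis as for the genes. Points are libraries and bars are group means. BRD2-208 steps down with dose from 11 to 17.3 CPM in the controls of 2 h to 2.63 to 2.98 CPM at 100 nM, and both SUPT5H transcripts are higher with 30 nM than in DMSO at 4 h.

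BRD3 passed the test only at 100 nM. It measured 40.5 and 36.7 CPM with Neg1 and 38.7 and 37.2 CPM with Neg2 at 2 h, against 36 and 38.6 CPM at 10 nM, 38.5, 31.4, 38.9 and 33.8 CPM at 30 nM, and 31.8, 32 and 35.3 CPM at 100 nM. Only the 100 nM libraries were all below the controls. The log2 fold change there was -0.21 ± 0.08 (adjusted p = 0.0423), a call lost with another scaling of the libraries (-0.20, adjusted p = 0.0565), with DESeq2 (-0.20, adjusted p = 0.0576), with length scaling (-0.15, adjusted p = 0.483) and without the 2 libraries that stood apart (-0.19, adjusted p = 0.177). The edgeR call was also lost with only the groups compared (adjusted p = 0.0608) and without 100 nM replicate 1 (adjusted p = 0.132) or replicate 2 (adjusted p = 0.126). Without Neg1 replicate 1 the value was -0.19, and without Neg2 replicate 1 it was -0.20. The call held in 6 of 15 alternatives. At 4 h against DMSO BRD3 was at -0.09 ± 0.09 (adjusted p = 0.437), with a range of 2 standard errors from -17% to 5.77%. With length scaling it was at -0.49 (adjusted p = 0.0217). BRD3 shares 1281 exon bases with BRD3OS on the opposite strand.

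Between doses few of these genes differed. From 10 to 30 nM none of the 9 passed (background 2.62%), and the largest difference was that of NELFB, 0.22 ± 0.07 (edgeR adjusted p = 0.1, DESeq2 adjusted p = 0.0496). Among all genes, 2849 had an unadjusted p under 0.05 there, and DESeq2 called 807 against 465 by edgeR. From 30 to 100 nM, 2 passed (background 12.9%), 1 higher (4.44%) and 1 lower (8.45%). SUPT5H rose by 0.18 ± 0.05 (adjusted p = 0.0285) and BRD2 fell by 0.25 ± 0.06 (log2 fold change -0.25, adjusted p = 0.00544). Without 100 nM replicate 1 these were 0.18 (adjusted p = 0.101) and -0.16 (adjusted p = 0.078), so neither passed, and the SUPT5H call was lost in 5 of the 7 fits without 1 library. It was also lost with length scaling (0.12, adjusted p = 0.306), with no filter (adjusted p = 0.0805), with protein-coding transcripts alone (adjusted p = 0.0506) and without the 2 libraries that stood apart (0.17, adjusted p = 0.0736). The BRD2 call was lost with protein-coding transcripts alone (-0.18, adjusted p = 0.0804) and with only the groups compared (-0.24, adjusted p = 0.0513).

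Set against each control compound alone at 2 h, 30 nM gave the same directions for NELFA, BRD2, NELFB, SUPT5H and SUPT6H. Against Neg1, 6 of 9 passed (background 27.8%), 4 higher (13.6% of all genes) and 2 lower (14.2%), and against Neg2, 6 passed (background 30.5%), 4 higher (14.8%) and 2 lower (15.7%). NELFA was at -0.49 ± 0.07 against Neg1 and -0.48 ± 0.07 against Neg2, and BRD2 at -0.36 ± 0.06 and -0.33 ± 0.06. The NELFA call against Neg1 was lost with length scaling (-0.22, adjusted p = 0.128), and the BRD2 call against Neg2 with protein-coding transcripts alone (-0.17, adjusted p = 0.0824). SUPT4H1 passed against Neg1 (0.23 ± 0.07, adjusted p = 0.0187) and not against Neg2 (0.11 ± 0.07, adjusted p = 0.254), and NELFE passed against Neg2 (0.32 ± 0.10, adjusted p = 0.0144) and not against Neg1 (0.15 ± 0.10, adjusted p = 0.286). This SUPT4H1 call was lost with length scaling (0.05, adjusted p = 0.816), without Neg1 replicate 1 (0.15, adjusted p = 0.32) and without 30 nM replicate 2 (adjusted p = 0.0501). That of NELFE was lost without 30 nM replicate 2 (adjusted p = 0.0545), Neg2 replicate 1 (adjusted p = 0.0561) or Neg2 replicate 2 (adjusted p = 0.143). SUPT5H lost its call against Neg1 (0.17 ± 0.06, adjusted p = 0.0365) in 5 of the 6 fits without 1 library, with no filter (adjusted p = 0.0892) and with protein-coding transcripts alone (adjusted p = 0.0587), and that against Neg2 (0.23 ± 0.06, adjusted p = 0.00506) without Neg2 replicate 1 (0.12, adjusted p = 0.287) and without the 2 libraries that stood apart (0.11, adjusted p = 0.286). NELFB lost its call against Neg1 (0.24 ± 0.07, adjusted p = 0.0112) without either Neg1 library (adjusted p = 0.0526 and 0.146) and with length scaling (0.19, adjusted p = 0.124), and that against Neg2 (0.27 ± 0.07, adjusted p = 0.0038) without Neg2 replicate 1 (adjusted p = 0.0604). Both comparisons share the 30 nM libraries. At 4 h, 2 of 9 passed against Neg1 (background 31.1%) and 2 against Neg2 (background 31.1%), NELFB and SUPT6H each time, both higher (14.2% and 14.4% of all genes).

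Neg1 and Neg2 were set against DMSO at 4 h and against each other at both times, 4 comparisons in all, and edgeR called none of the 9 genes and none of all genes (background 0% in each). Genes with an unadjusted p under 0.05 numbered 770 for Neg1 and 1063 for Neg2 against DMSO, and DESeq2 called 1 and 4 genes. At an unadjusted p under 0.05 there were 1127 genes at 2 h and 464 at 4 h between Neg1 and Neg2, with 1 DESeq2 call each. These counts do not show that the compounds act alike. For SUPT6H the range of 2 standard errors between Neg1 and Neg2 ran from -4.71% to 13% at 2 h and from -4.52% to 13.2% at 4 h, and for NELFA from -10% to 13.5% and from -20% to 1.06%. BRD2 ranged from -8.14% to 12.9% and from -10.6% to 9.89%. The mean of Neg1 and Neg2 at 4 h against that at 2 h called none of the 9 (edgeR, background 0%, with 1394 genes at an unadjusted p under 0.05 and 9 by DESeq2).

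From 2 h to 4 h of 30 nM, 2 of the 9 genes rose (background 21.9%, 10.3% higher), NELFA as given above and BRD2 by 0.22 ± 0.06 (adjusted p = 0.00568). With length scaling BRD2 was at 0.19 (adjusted p = 0.0571). For BRD2 the change over time of the effect against Neg1 and Neg2 was 0.21 ± 0.08 and missed the threshold (adjusted p = 0.0844). It passed in 6 of the alternatives, among them DESeq2 (adjusted p = 0.0332), protein-coding transcripts alone (0.31, adjusted p = 0.0222) and the fit without the 2 libraries that stood apart (0.25, adjusted p = 0.00299). SUPT6H was at 0.12 ± 0.05 between the times (adjusted p = 0.0745).

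Other genes of pause release moved in both directions at 30 nM and 4 h against DMSO. Among 7 genes of P-TEFb and its 7SK inhibitor complex, 3 rose and 3 fell (median 0.39). CCNT1, a cyclin of P-TEFb, rose by 0.85 ± 0.07 from 112 ± 9.86 to 202 ± 8.55 CPM (SD, n = 3), and MEPCE, which caps 7SK RNA, fell from 136 ± 2.13 to 46.5 ± 1.63 CPM (log2 fold change -1.54 ± 0.08). Of 10 genes of the super elongation complex, 3 rose and 3 fell (median 0.09), led by AFF1, its scaffold (1.92 ± 0.285 to 20.3 ± 0.662 CPM), and by ELL2, low throughout (1.73 ± 0.285 to 0.601 ± 0.497 CPM), whose call (adjusted p = 0.0154) was lost with length scaling (-0.10, adjusted p = 0.951) and without DMSO replicate 2, 30 nM replicate 1 or 30 nM replicate 3 (adjusted p = 0.0517, 0.0887 and 0.0595).

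Of 16 other elongation factors, 4 rose and 6 fell (median -0.05), among them ELOB at 0.33 ± 0.09 and POLR2M at -0.55 ± 0.06, the latter turning to 0.33 with length scaling (adjusted p = 0.521). Among 12 genes of Integrator and phosphatases that act on the paused polymerase, 3 rose and 5 fell (median 0.07), with INTS11, the RNA endonuclease, at 0.41 ± 0.06 and INTS6 at -1.18 ± 0.09. Of 7 tested partners of BET proteins, 3 rose and 2 fell (median -0.15), with the acetyltransferases KAT8 at 0.51 ± 0.06 and EP300 at -0.33 ± 0.11 (without 30 nM replicate 2, -0.25, adjusted p = 0.117, and with length scaling, -0.36, adjusted p = 0.0513). Over all genes the median was 0.03, and 17.5% rose and 19.3% fell.

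Across the 23 libraries, NELFA and BRD2 followed each other (Pearson r of log2 CPM 0.888), as did NELFB and SUPT6H (r = 0.824), and NELFA ran against SUPT4H1 (r = -0.673). Of 9478 other protein-coding genes, the one most like BRD2 was FAM53C (r = 0.982), the one most like SUPT6H was BRD9 (r = 0.952) and the one most like NELFA was SERTAD1 (r = 0.935). For SUPT5H it was PSMD3 (r = 0.924), for NELFB GRN (r = 0.923), for SUPT4H1 MDH1 (r = 0.869), for NELFE PSMB10 (r = 0.85), for BRD3 ZDHHC7 (r = 0.833) and for the matched part of NELFCD SERINC3 (r = 0.644). These libraries share their treatment groups, so the values describe a common course over groups and carry no test.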

How the data were processed

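RNA-seq was measured in 23 libraries of 9 groups taken from the labels. The authors deposited kallisto estimated counts and TPM per transcript. The tools named per the submitters' processing notes are kallisto, cutadapt, FastQC and DESeq2, and the transcript set, versions and strandedness were not given in the sources used here. Of 227912 transcripts, 205964 were matched without version to GENCODE 29 (GRCh38) and summed to 58592 genes, and 1.16% to 1.28% of counts were unmatched. Rounded sums were fitted with edgeR 4.0.16 (R 4.3.3, TMM, filterByExpr, quasi-likelihood F test, 1 coefficient per group, 14 residual degrees of freedom), with Benjamini-Hochberg adjustment over 17743 genes. The same fit was made over 71209 transcripts, and transcript usage was tested with diffSpliceDGE over 65009. The standard error is the log2 fold change over the root of F. CPM are after TMM scaling, and TPM were summed as deposited. Totals were 17396484 to 26373153, and the spread between replicates was above counting error (4.31 to 14.2 as a chi-square divided by its degrees of freedom).

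The genes, lists and comparisons were chosen with earlier results of these data known. All 9 genes are named, as are transcripts with at least 10% of a gene's counts in some group, the most correlated other gene, and the largest called rise and fall of each list. Other transcripts are said to be singled out. On simulated data for 30 nM at 4 h against DMSO (16949 genes), 30 of 100 changes of 0.3 and 83 of 100 of 0.6 on the log2 scale were called. Only 100 genes were changed at each size, while 36.8% of genes were called in the data. The adjustment over all genes was thus stricter in the simulation, and these shares do not measure the power of the real test. In simulated usage (60451 transcripts), 10 of 100 changes of 2 and 54 of 100 of 4 were called. Alternatives were DESeq2 1.42.0, relative log expression scaling, no filter, length scaling, protein-coding transcripts only, only the groups compared, a replicate block, and leaving out libraries.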

Additional observations from a re-analysis of the deposited data

Results flagged for a closer look

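For NELFA the difference of 30 nM CDK-TCIP1 from the average of Neg1 and Neg2 depended on the time. The effect at 4 h minus that at 2 h was 0.41 ± 0.09 on the log2 scale (edgeR interaction contrast, adjusted p = 0.00289). NELFA was lower in all 4 CDK-TCIP1 libraries than in all 4 libraries of Neg1 and Neg2 at 2 h, and at 4 h it overlapped those of Neg1. The value was 0.20 with length scaling (adjusted p = 0.365), and the part of transcript lengths in it was not tested. Among the 9 genes no other such contrast passed, and that of BRD2 was 0.21 ± 0.08 (adjusted p = 0.0844). It passed without the 2 libraries that stood apart (0.25, adjusted p = 0.00299).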

How the results depend on the processing

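Of 2213 values of the 9 genes under the alternatives, 2102 kept their side of the threshold (75 of them, none called, with the other sign), 63 lost a call, 47 gained one and 1 reversed, namely BRD2 at 4 h against DMSO, at 0.07 with protein-coding transcripts alone. Among the named genes of the lists, POLR2M reversed to 0.33 with length scaling. The cause of each shift was not tested. The matched NELFCD sum lacks an abundant transcript, transcripts near 0 rest on few reads, and the files hold no error for how kallisto assigns reads.

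Length scaling lowered the genes called at 4 h to 3425 against Neg1 and 3387 against Neg2. At 2 h it lowered them to 2883 (3 of the 9 genes) against Neg1 and 3368 against Neg2 with 30 nM, and to 1050 at 10 nM against the average of both. It gave 82 from 10 to 30 nM, 839 (1 of the 9) from 30 to 100 nM, 1881 (0 of the 9) from 2 h to 4 h, and 619 for the effect of time on the difference. With no filter on low counts, 786 genes differed from 10 to 30 nM, 1 of the 9 from 30 to 100 nM, 75 and 119 genes for Neg1 and Neg2 against DMSO, 143 (1 of the 9) and 47 between Neg1 and Neg2 at 2 h and 4 h, 196 between the times of Neg1 and Neg2, and 2 of the 9 for the effect of time. Without a filter, transcripts called at 10 nM numbered 551 (2 of the 28).

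DESeq2 called 5 of the 9 genes at 10 nM, 1 of the 9 (807 genes) from 10 to 30 nM, 1 and 4 genes for Neg1 and Neg2 against DMSO, 1 and 1 between Neg1 and Neg2 at 2 h and 4 h, 9 between their times, and 2 of the 9 for the effect of time. Protein-coding transcripts alone gave 0 of the 9 from 30 to 100 nM, 4 of the 9 from 2 h to 4 h, 1 gene between the times of Neg1 and Neg2, and 2 of the 9 for the effect of time. Fits of only the groups compared gave 4 of the 9 against Neg1 at 4 h, 1 of the 9 (1206 genes) from 30 to 100 nM, 1 and 43 genes for Neg1 and Neg2 against DMSO, 3 between Neg1 and Neg2 at 4 h, and 2 of the 9 for the effect of time.

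Without the 2 libraries that stood apart, 775 genes differed from 10 to 30 nM and 902 (1 of the 9) from 30 to 100 nM, with 2 of the 9 for the effect of time. At 100 nM, 4605 transcripts then changed in level (4 of the 28). Usage calls fell to 107 (0 of the 28) at 10 nM, 306 (0 of the 28) at 30 nM and 284 at 100 nM.

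Leaving out 1 library at a time gave ranges of 3555 to 5018 genes against Neg1 at 4 h, 3012 to 4676 (3 to 6 of the 9) against Neg1 and 3250 to 5231 (3 to 6) against Neg2 at 2 h, and 978 to 2419 at 10 nM. From 10 to 30 nM the range was 52 to 431, and from 30 to 100 nM it was 839 to 2823 (0 to 2 of the 9). It was 0 to 2 for Neg1 against DMSO, 0 to 83 and 0 to 1 between Neg1 and Neg2 at 2 h and 4 h, 0 to 111 between their times, and 1 to 2 of the 9 for the effect of time. Level calls among the 28 transcripts were 1 to 2 at 4 h, 0 to 3 at 10 nM (231 to 1158 of all), 3 to 5 at 30 nM and 4 to 10 at 100 nM. Usage calls were 310 to 378 at 4 h, 76 to 187 (0 to 1 of the 28) at 10 nM, 299 to 657 (0 to 2) at 30 nM and 455 to 748 at 100 nM.

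Replicate numbers did not pair the samples: the correlation of deviations had a median of 0.0111 over 78 pairs of the same number and -0.00928 over 155 pairs of different numbers, and 4 of 23 libraries correlated best with their own number. With the replicate block, usage calls at 30 nM for 2 h were 473 (0 of the 28), and no other count moved by more than 1.5 times. SUPT4H1 then passed at 10 nM (0.20, adjusted p = 0.0465) and against Neg1 at 4 h (0.21, adjusted p = 0.0322), and NELFA-202 at 4 h against DMSO (-0.49, adjusted p = 0.0441). At 4 h BRD2-212 and SUPT6H-202 no longer did (adjusted p = 0.0524 and 0.057), nor BRD2-208 at 10 nM (adjusted p = 0.0594). At 30 nM for 2 h NELFA-205 lost its call in level (2.50, adjusted p = 0.0722) and in usage (2.98, adjusted p = 0.0884), as did NELFA-212 (level adjusted p = 0.0754, usage 0.0679), and SUPT5H-218 lost that in level (adjusted p = 0.063).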
